A study of Homo sapiens with 9 samples.

Results

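Chromogranins and other genes of the secretory granule were followed through 9 RNA sequencing libraries of HEK293T cells, a line derived from human embryonic kidney that carries the SV40 large T antigen. The set was defined by name: every row of the tables whose Ensembl identifier carries 1 of 10 GENCODE 29 symbols, of 58735 genes in all. It holds the granins CHGA, CHGB, SCG2, SCG3 and VGF, the processing helpers SCG5 and PCSK1N, the convertases PCSK1 and PCSK2, and the carboxypeptidase CPE. The set was proposed after the high level of CHGA with the SUDS3 siRNA was known. Values from SUDS3 knockdown libraries are therefore given as a description, with calls but without p-values, and only PHF12 knockdown against control is given with p-values. It shares its 3 control libraries with the SUDS3 comparison.

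HEK293T cells received 10 nM of a negative control siRNA, of 1 siRNA against PHF12 or of 1 siRNA against SUDS3 for 36 h, with 3 libraries each. Both targets encode parts of SIN3 complexes, corepressors that carry histone deacetylases. The labels name no other alteration of the cells, and every group, controls included, was transfected with Lipofectamine RNAiMAX. With 1 siRNA for each target, effects of the siRNA and of the loss of its target cannot be told apart. Whether the 3 libraries of a group came from different cultures is not in the labels, and p-values then cover only their spread, which may be technical.

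Endocrine and nerve cells store peptide hormones in dense-core granules and release them on a signal. Granins are acidic proteins that aggregate with calcium in the trans-Golgi network and pack these granules, and several are themselves cut into bioactive peptides. Prohormones are cut inside the granule by the convertases PC1/3 (PCSK1) and PC2 (PCSK2) and trimmed by carboxypeptidase E (CPE). SCG5 (7B2) helps PC2 mature, and PCSK1N (proSAAS) inhibits PC1/3. Several granin genes are repressed outside neurons and endocrine cells by REST, which binds the RE1 element and can recruit SIN3 and CoREST corepressors, and the VGF promoter is known for a cAMP response element (CRE).

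Promoters are shown for SCG3, which fell with the PHF12 siRNA and was called higher with the SUDS3 siRNA, and for VGF, a granin that was called in neither comparison with control. Of the 10 members, 8 have an entry in the RefSeq promoter table used (GRCh38.p14), which spans 250 bases before to 50 bases after the annotated start, and CHGB and SCG2 do not. Both are written 5′ to 3′ on the gene's strand. Capitals mark matches to the CRE palindrome TGACGTCA, its shorter core TGACG, and the RE1 parts TTCAGCACC and GGACAG, searched on both strands, with TGACG lying inside the palindrome.
SCG3, chr15:51681253-51681552, plus strand: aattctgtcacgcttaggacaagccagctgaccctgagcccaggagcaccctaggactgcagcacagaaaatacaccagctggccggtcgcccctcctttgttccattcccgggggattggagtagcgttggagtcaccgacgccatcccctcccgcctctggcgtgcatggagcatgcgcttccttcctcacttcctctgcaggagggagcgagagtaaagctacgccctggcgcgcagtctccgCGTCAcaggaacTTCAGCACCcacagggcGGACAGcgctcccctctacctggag
VGF, chr7:101165520-101165819, minus strand: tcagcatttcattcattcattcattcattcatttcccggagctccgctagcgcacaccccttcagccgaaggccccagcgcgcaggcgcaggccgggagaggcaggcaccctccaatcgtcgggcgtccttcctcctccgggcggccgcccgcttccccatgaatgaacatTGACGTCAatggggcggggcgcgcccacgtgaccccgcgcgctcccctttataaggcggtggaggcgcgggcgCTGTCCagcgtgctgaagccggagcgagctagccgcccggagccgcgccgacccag
The palindrome TGACGTCA lay at positions -79 to -72 of VGF, counted from the start site as +1, and was present in 1.85% of 35116 promoters. The SCG3 window held TTCAGCACC at 9 to 17 and GGACAG at 26 to 31, with 8 bases between them. TTCAGCACC was present in 0.376% of promoters and GGACAG in 20.5%. Both stood on 1 strand, in any order and at any distance, in 30 of 35116. How many promoters hold them with the spacing seen in SCG3 was not counted. SCG3 also held CGTCA, the reverse complement of TGACG, and VGF held CTGTCC, the reverse complement of GGACAG, at -6 to -1. TGACG was present in 24.6% of promoters. Matches are given for these 2 windows only, and no comparison with the other members is drawn from them. A match is a description of letters in these windows, not evidence of a bound site.

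Of all counts above 0, 96.1% were multiples of 4, and every nonzero count of the members was. Why the counts come in multiples of 4 is not known. Fragments are given below as counts divided by 4, and whether 4 counts stand for 1 fragment was not tested. Libraries held 37962926 to 50946148 counts, or 9490732 to 12736537 such fragments. PHF12 fell from 49.9 ± 0.938 CPM (counts scaled to library size) in controls to 26.9 ± 2.08 with its siRNA, and SUDS3 measured 111.1 ± 3.31 CPM in controls and 22.1 ± 0.937 with its own (SD, n = 3). SUDS3 also measured 81.0 ± 0.784 CPM with the PHF12 siRNA, and PHF12 61.5 ± 1.73 with the SUDS3 siRNA. Of 18088 genes tested with edgeR, 14.8% rose and 17.1% fell with the PHF12 siRNA at an adjusted p under 0.05, and 19.6% were called higher and 19.2% lower with the SUDS3 siRNA. Rises made up 46.4% of the PHF12 calls, and 56.9% when scaled by the upper quartile.

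CHGA, CHGB and SCG3 fell with the PHF12 siRNA, and all 3 were called higher with the SUDS3 siRNA. PCSK1N was also called higher and CPE lower with the SUDS3 siRNA. SCG2, SCG5 and VGF were not called in either comparison with control, and PCSK1 and PCSK2 were at or near 0 in every library. Of the 8 members that passed the filter on low counts, 0 rose and 3 fell with the PHF12 siRNA in edgeR and in DESeq2, against 14.8% and 17.1% of all genes tested, and CPE alone of the 8 was higher at an unadjusted p under 0.05. In the SUDS3 knockdown 4 of the 8 were called higher and 1 lower, against 19.6% and 19.2% of all genes. The median log2 fold change of the 8 was -0.44 in the PHF12 knockdown and 0.35 in the SUDS3 knockdown, where the medians of all genes tested were -0.00357 and -0.02.

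**Figure D1:**
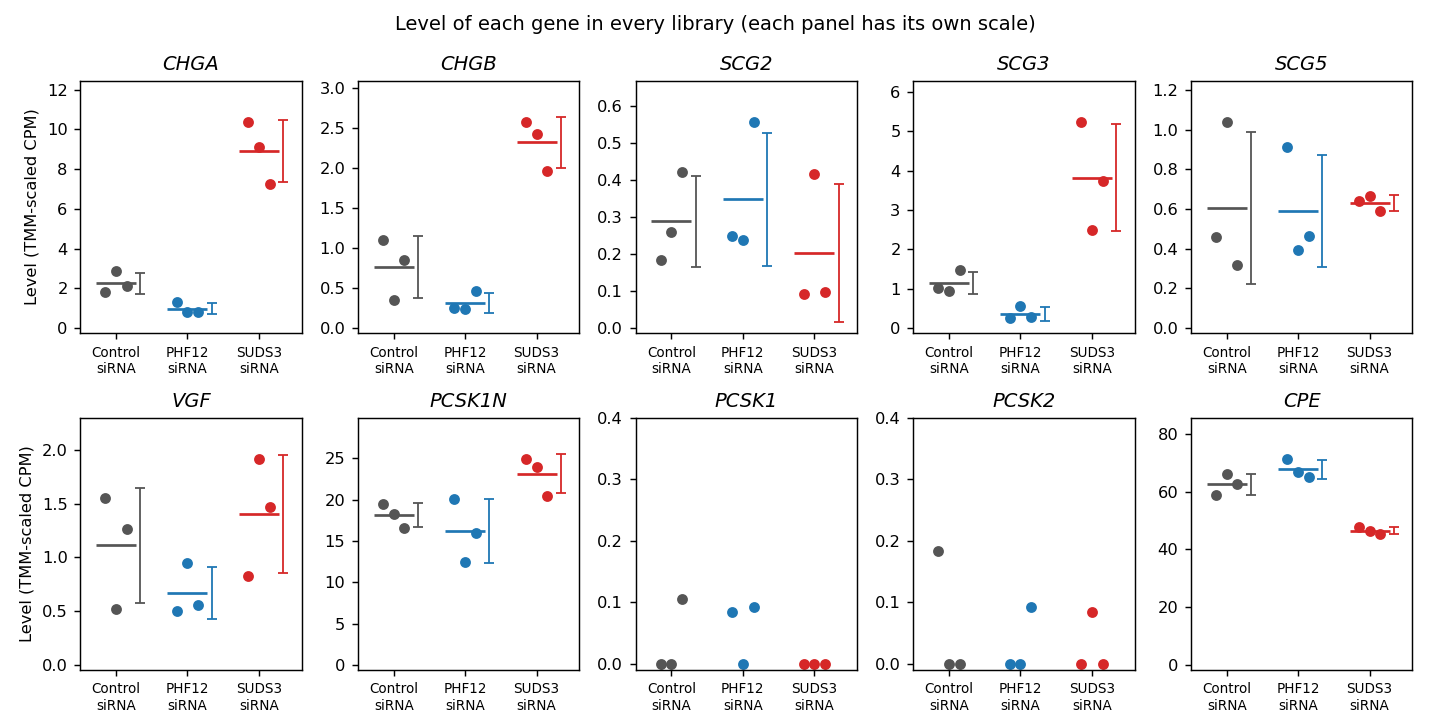
Level of each of the 10 genes in every library, in TMM-scaled CPM, with its own linear axis per gene; points are libraries, lines are means of 3 and bars are 1 SD, both left out for PCSK1 and PCSK2. CHGA, CHGB and SCG3 are highest in all 3 SUDS3 siRNA libraries, CPE is lowest there, and PCSK1 and PCSK2 stay under 0.2 CPM.

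Chromogranin A, CHGA (ENSG00000100604, GRCh38 chromosome 14, 92923080 to 92935293), is the founding granin and a clinical marker of neuroendocrine tumours. Its level was 1.83, 2.85 and 2.11 CPM in the control libraries, 1.33, 0.791 and 0.833 with the PHF12 siRNA, and 10.4, 9.09 and 7.26 with the SUDS3 siRNA. The 3 groups did not overlap in any pair, with PHF12 knockdown lowest and SUDS3 knockdown highest. CHGA fell from 2.26 ± 0.530 to 0.985 ± 0.30 CPM after PHF12 knockdown (SD, n = 3), a log2 fold change of -1.20 with SE 0.23 (edgeR adjusted p = 8.59e-05). In fits without 1 library that fold change ran from -1.48 to -0.99, and with counts divided by 4 it was -1.19 (SE 0.29, adjusted p = 0.000581). On log2(TPM + 1) it was -0.76 (limma adjusted p = 0.0113). CHGA stood at 8.90 ± 1.56 CPM in the SUDS3 knockdown, 3.92-fold the control level (log2 fold change 1.97, SE 0.20). Between the knockdowns the difference was 3.17 on the log2 scale (SE 0.22). The control values rest on 80 to 132 counts, or 20 to 33 fragments, per library.

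Chromogranin B, CHGB (ENSG00000089199, chromosome 20, 5911430 to 5925361), is a larger granin that shares a disulfide loop near its amino terminus with chromogranin A. It measured 1.10, 0.346 and 0.845 CPM in controls, 0.250, 0.237 and 0.463 with the PHF12 siRNA and 2.57, 2.42 and 1.96 with the SUDS3 siRNA. The SUDS3 knockdown libraries lay above all others, while PHF12 knockdown and control libraries overlapped through control replicate 2. CHGB fell from 0.763 ± 0.382 to 0.317 ± 0.127 CPM after PHF12 knockdown (a log2 fold change of -1.27, SE 0.42, edgeR adjusted p = 0.0191). That call ended without control replicate 1 (log2 fold change -0.90, adjusted p = 0.163) or 3, without PHF12 knockdown replicate 1 or 2, in the fit of the 2 groups alone (adjusted p = 0.0912) and on log2 TPM. Over all alternatives its adjusted p ran from 0.00284 to 0.163. CHGB stood at 2.32 ± 0.316 CPM in the SUDS3 knockdown (log2 fold change 1.61, SE 0.38, and 1.06 on log2(TPM + 1)), 3.05-fold the control level. The PHF12 knockdown value rests on 3 to 5 fragments per library.

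Secretogranin III, SCG3 (ENSG00000104112, chromosome 15, 51681353 to 51721031), binds chromogranin A and cholesterol in the granule membrane. Controls held 1.01, 0.951 and 1.48 CPM, PHF12 knockdown libraries 0.250, 0.554 and 0.278, and SUDS3 knockdown libraries 5.23, 2.50 and 3.73. As with CHGA, no 2 groups overlapped, and SUDS3 knockdown replicate 1 was the highest library. SCG3 fell from 1.15 ± 0.290 to 0.36 ± 0.168 CPM after PHF12 knockdown (a log2 fold change of -1.64, SE 0.36, edgeR adjusted p = 0.000392). Leaving out 1 library gave -2.10 to -1.42 and counts divided by 4 gave -1.59 (adjusted p = 0.00313). On log2(TPM + 1) the call ended (-0.28, limma adjusted p = 0.141), while on log2(TPM + 0.1) it held (-1.11, limma adjusted p = 0.0212). SCG3 stood at 3.82 ± 1.37 CPM in the SUDS3 knockdown (log2 fold change 1.74, SE 0.31), and the 2 knockdowns differed by 3.38 (SE 0.34). On log2(TPM + 1) these differences were 0.68 and 0.97, and on log2(TPM + 0.1) they were 1.48 and 2.59.

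**Figure D2:**
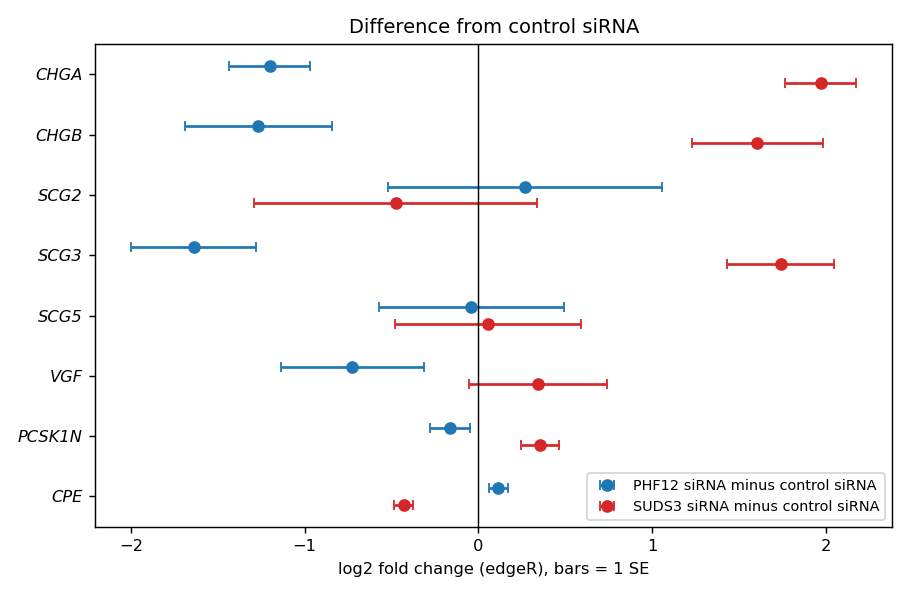
Difference of each knockdown from control siRNA for the 8 genes that passed the low-count filter; points are edgeR log2 fold changes and bars are 1 SE. CHGA, CHGB and SCG3 sit left of 0 with the PHF12 siRNA and right of 0 with the SUDS3 siRNA, and CPE shows the only SUDS3 difference below 0 whose bar stays clear of 0.

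The remaining granins did not separate the groups. Secretogranin II, SCG2 (ENSG00000171951, chromosome 2, 223596940 to 223602503), the precursor of secretoneurin, held 0.183, 0.259 and 0.422 CPM in controls, 0.250, 0.237 and 0.556 with the PHF12 siRNA and 0.0917, 0.417 and 0.0981 with the SUDS3 siRNA. All 3 groups overlapped, at 1 to 6 fragments per library, and SCG2 reached the filter's cutoff of 0.226 CPM in 6 of 9 libraries. Its log2 fold change with the PHF12 siRNA was 0.27 (SE 0.79, edgeR adjusted p = 0.852). That SE is wide beside the CHGA value with the same siRNA (-1.20), and the smallest difference detectable at this depth was not tested. VGF (ENSG00000128564, chromosome 7, 101162509 to 101165593), a nerve growth factor inducible precursor of several peptides, held 1.55, 0.519 and 1.27 CPM in controls, 0.499, 0.949 and 0.556 with the PHF12 siRNA and 0.826, 1.92 and 1.47 with the SUDS3 siRNA. The groups overlapped here too. VGF differed from control by -0.72 with the PHF12 siRNA (SE 0.41, adjusted p = 0.196; -1.07 to -0.40 and adjusted p of 0.0533 to 0.613 without 1 library) and by 0.34 with the SUDS3 siRNA (SE 0.40). Between the knockdowns VGF was called higher with the SUDS3 siRNA (1.07, SE 0.41), a call lost on log2 TPM and, at 0.78 to 1.03, on leaving out either replicate 1 or 3 of the PHF12 knockdown or replicate 2 or 3 of the SUDS3 knockdown.

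Of the helpers of the convertases, SCG5 (ENSG00000166922, chromosome 15, 32641676 to 32697098) held 0.457, 1.04 and 0.317 CPM in controls, 0.915, 0.395 and 0.463 with the PHF12 siRNA and 0.642, 0.667 and 0.588 with the SUDS3 siRNA. Its groups overlapped, at 3 to 12 fragments per library. The fold changes of SCG5 were -0.04 (SE 0.53, edgeR adjusted p = 0.969) with the PHF12 siRNA and 0.06 (SE 0.53) with the SUDS3 siRNA. Those SE are wide, and without 1 library the PHF12 value ran from -0.50 to 0.60. The smallest difference detectable for SCG5 was not tested. PCSK1N (ENSG00000102109, chromosome X, 48831094 to 48835633) was far better covered, with 157 to 288 fragments per library. It held 19.5, 18.2 and 16.6 CPM in controls, 20.1, 12.4 and 16.0 with the PHF12 siRNA, and 24.9, 24.03 and 20.5 with the SUDS3 siRNA. SUDS3 knockdown libraries all lay above the controls and above the PHF12 knockdown, within which the libraries spread widely. The PHF12 siRNA gave a log2 fold change of -0.16 (SE 0.11, adjusted p = 0.306), which was -0.35 and passed without PHF12 knockdown replicate 1 (adjusted p = 0.0156) and was -0.0022 without replicate 2 (adjusted p = 0.993). PCSK1N went from 18.1 ± 1.45 to 23.2 ± 2.35 CPM in the SUDS3 knockdown (log2 fold change 0.36, SE 0.11), a call lost on leaving out control replicate 3 (0.30) or replicate 1 of the SUDS3 knockdown (0.30), and in both fits of log2 TPM.

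The granule convertases themselves were barely detected. PCSK1 (ENSG00000175426, chromosome 5, 96390415 to 96434143) had 4 counts in control replicate 3 and in PHF12 knockdown replicates 1 and 3, and 0 in the other 6 libraries. PCSK2 (ENSG00000125851, chromosome 20, 17226107 to 17484578) had 8 counts in control replicate 1, 4 in PHF12 knockdown replicate 3 and in SUDS3 knockdown replicate 2, and 0 elsewhere. No library held more than 2 fragments of either, so neither was tested. A count of 0 allows up to 3 fragments, or 12 counts, which is 0.237 to 0.317 CPM in these libraries. Such limits cover counting error only.

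Carboxypeptidase E, CPE (ENSG00000109472, chromosome 4, 165361194 to 165498320), was the best covered member, with 461 to 858 fragments per library. Controls held 58.9, 66.2 and 62.7 CPM, PHF12 knockdown libraries 71.4, 67.0 and 65.0, and SUDS3 knockdown libraries 47.7, 46.5 and 45.2. The SUDS3 knockdown libraries were tightly grouped below all others, and control replicate 2 lay within the PHF12 knockdown range. CPE went from 62.6 ± 3.65 to 46.5 ± 1.24 CPM in the SUDS3 knockdown (log2 fold change -0.43, SE 0.06). With the PHF12 siRNA it stood at 67.8 ± 3.25 CPM (0.12, SE 0.05, edgeR adjusted p = 0.107, and 0.0267 to 0.422 over all alternatives), which passed with upper-quartile scaling (0.15, adjusted p = 0.0267). CPE differed from control in the opposite direction to CHGA, CHGB and SCG3 with the SUDS3 siRNA. Between the knockdowns 5 of the 8 members were called higher with the SUDS3 siRNA (CHGA, CHGB, SCG3, VGF and PCSK1N) and 1 lower (CPE), against 22.7% and 21.1% of all genes tested. In that comparison 51.8% of all calls were higher, and 41.2% when scaled by the upper quartile.

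Levels of different genes are compared in TPM, the share of all transcripts after scaling for gene length. In controls CPE led with 36.9 TPM, followed by PCSK1N with 19.2 and CHGA with 2.63, and the libraries of these 3 did not overlap with those of the next gene. SCG5 (1.15), CHGB (1.03), SCG2 (0.747), VGF (0.643) and SCG3 (0.354) followed, and each of these neighbours overlapped the next. With the PHF12 siRNA CHGA, at 1.15 TPM, overlapped SCG5 at 1.13. With the SUDS3 siRNA CPE (27.8), PCSK1N (24.9) and CHGA (10.5) kept the control order, and CHGB (3.15) came next, ahead of SCG5. Each of these stood clear of the gene after it. SCG5 (1.22), SCG3 (1.20), VGF (0.821) and SCG2 (0.531) overlapped in turn.

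**Figure D3:**
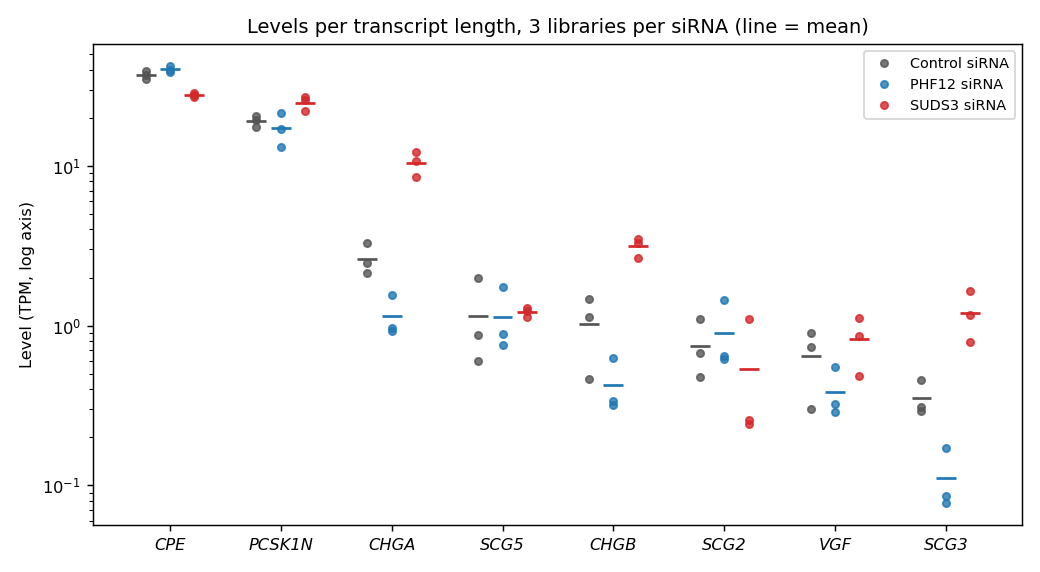
Levels in TPM on a log axis for the 8 genes that passed the low-count filter, ordered by the control mean; points are libraries and lines are means of 3. CPE and PCSK1N stand above the granins with every siRNA, and CHGA reaches 10.5 TPM with the SUDS3 siRNA.

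Markers of other cells were read beside these levels. Of 14 markers of neuroendocrine and chromaffin cells, 8 were tested. With the PHF12 siRNA 0 rose in edgeR (0 at an unadjusted p under 0.05 and 0 in DESeq2) and 1 fell, and with the SUDS3 siRNA 3 were called higher and 2 lower. The shares of all genes tested were 14.8% and 17.1% with the PHF12 siRNA, and 19.6% and 19.2% with the SUDS3 siRNA. Of 10 HEK293 markers, 9 were tested. With the PHF12 siRNA 3 of these rose and 3 fell, and with the SUDS3 siRNA 1 was called higher and 2 lower. The neuroendocrine and chromaffin markers summed to 195.0 to 221.3 TPM in controls, 188.7 to 213.8 with the PHF12 siRNA and 259.7 to 288.5 with the SUDS3 siRNA. Their part in the results was not tested. PHOX2A, TH and CALCA were among these markers at 0 in every library, while others of the same list were well expressed. Named after their values were seen, NCAM1 averaged 130.1, 138.3 and 153.5 TPM with the control, PHF12 and SUDS3 siRNAs, and the vesicle membrane protein SYP 37.8, 21.5 and 84.9 TPM. SYP was thus lowest with the PHF12 siRNA and highest with the SUDS3 siRNA, the order of the CHGA means. Others of the list went the other way with the SUDS3 siRNA. INSM1 averaged 6.70, 6.55 and 3.30 TPM with the control, PHF12 and SUDS3 siRNAs, and ENO2 11.6, 10.8 and 8.08 TPM. The HEK293 markers summed to 481.3 to 490.1 TPM in controls, 568.3 to 596.4 and 431.5 to 460.9 with the PHF12 and SUDS3 siRNAs, with PAX8 at no more than 4 counts. Leukocyte markers summed to at most 0.669 TPM and endothelial ones to at most 0.377. Fibroblast markers, led by COL1A1, summed to 8.06 to 8.82 TPM in controls, 11.5 to 13.0 with the PHF12 siRNA and 13.6 to 15.3 with the SUDS3 siRNA. In bulk RNA, fewer cells with a transcript and less of it per cell cannot be told apart.

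An siRNA can also lower transcripts whose 3′ UTR matches its seed. The sequences of these siRNAs were not used here. In an earlier analysis of these same libraries the hexamer AATCAC stood out among falls with the PHF12 siRNA and TACATT among falls with the SUDS3 siRNA. In the longest annotated 3′ UTR, AATCAC was present in 79.6% of 201 protein-coding genes that fell at least 2-fold with the PHF12 siRNA and in 30.7% of 13770 tested. TACATT was present in 52.7% of 281 called lower at least 2-fold with the SUDS3 siRNA and in 40.9% of all. Among genes called higher at least 2-fold, AATCAC was present in 14.1% of 92 with the PHF12 siRNA. TACATT was present in 22.7% of 66 called higher with the SUDS3 siRNA. The hexamers were picked from falls in these same libraries, so their excess among falls is no test of a seed effect. Genes in the lower sets had longer 3′ UTRs, with medians of 2049 and 1612 bases against 1370 for all tested. Those in the higher sets had shorter ones, with medians of 1126 and 1082 bases. The part of length in these shares was not tested. The 3′ UTRs of CHGA (409 bases), CHGB (312 bases), PCSK1N (166 bases), VGF (487 bases) and CPE (710 bases) hold neither hexamer. That of SCG3 (1505 bases) holds AATCAC 1 time and TACATT 0 times, and the part of that site in the fall of SCG3 was not tested.

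The other genes of the secretory pathway are given as counts, to be read against the shares of all genes called, 14.8% higher and 17.1% lower with the PHF12 siRNA and 19.6% and 19.2% with the SUDS3 siRNA. Among 7 other proprotein convertases, which cut precursors in the Golgi, at the surface or in constitutive traffic, 6 were tested. In the PHF12 knockdown 2 rose and 1 fell, with a median log2 fold change of 0.05. PCSK6 (PACE4) fell from 70.0 to 48.2 CPM (-0.54, SE 0.05, edgeR adjusted p = 1.58e-10), the site-1 protease MBTPS1 rose by 0.12 (adjusted p = 0.00897) and PCSK4 by 0.57 (adjusted p = 0.0162). The PCSK4 call was lost on leaving out replicate 3 of control (0.50, adjusted p = 0.0725) or of the PHF12 knockdown (0.53, adjusted p = 0.061), and on log2(TPM + 0.1) (0.48, adjusted p = 0.0516). In the SUDS3 knockdown 2 were called higher and 2 lower, with a median of 0.04. FURIN, the ubiquitous convertase, was higher (0.38, SE 0.05), and PCSK6 and PCSK5 were lower (both -0.52).

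Of 15 carboxypeptidases, amidating and other peptide-finishing enzymes, 10 were tested. With the PHF12 siRNA 0 rose in edgeR (1 at an unadjusted p under 0.05 and 1 in DESeq2) and 1 fell, with a median of -0.03. The gene that fell was PAM, which amidates the ends of peptide hormones, from 74.8 to 55.6 CPM (-0.43, SE 0.05, edgeR adjusted p = 1.04e-08). In the SUDS3 knockdown 3 were called higher and 4 lower, with a median of 0.03. Carboxypeptidase M, gene symbol CPM, was higher (0.71, SE 0.17) and glutaminyl cyclase, QPCT, lower (-0.41, SE 0.11), as was PRSS12 (-0.32). The PRSS12 call was lost in DESeq2, in both fits of log2 TPM and, at -0.32 to -0.24, on leaving out any of 4 libraries (replicates 1 and 2 of control, 2 and 3 of the SUDS3 knockdown).

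Of 42 genes of granule membranes, biogenesis and traffic, 34 were tested. In the PHF12 knockdown 6 rose and 8 fell, with a median of -0.05. That balance turned to 9 and 5 with upper-quartile scaling, to 9 and 7 in DESeq2 and with counts divided by 4, and to 9 and 6 in the fit of the 2 groups alone. It was 5 and 5 on log2 TPM, and 7 and 4, 3 and 6, and 7 and 5 without control replicates 1, 2 and 3. SYTL5, a Rab27 effector, held 6.03, 7.01 and 6.55 CPM in controls, 13.4, 11.9 and 11.9 with the PHF12 siRNA and 3.67, 3.00 and 3.53 with the SUDS3 siRNA. Its 3 groups did not overlap, in the opposite order to CHGA. It rose with the PHF12 siRNA (0.92, SE 0.13, edgeR adjusted p = 3.83e-07), as did the sorting receptor SORL1 (0.52, adjusted p = 0.000353), while ARFIP1, which binds ARF and ARL1 GTPases at the trans-Golgi, fell (-0.85, adjusted p = 7.19e-13). Against control, 9 were called higher and 6 lower with the SUDS3 siRNA, with a median of 0.0035, and 8 and 9 with upper-quartile scaling. The lower ones included SYTL5 (-0.94), ICA1L (-0.65) and SORCS1 (-0.64), the last not called on leaving out control replicate 2 (-0.54) or 3 (-0.59), or replicate 1 of the SUDS3 knockdown (-0.55).

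Of 72 prohormone and neuropeptide genes, 26 were tested, 0 were called higher with the SUDS3 siRNA in edgeR (0 at an unadjusted p under 0.05, 0 in DESeq2, and 1 without SUDS3 knockdown replicate 1) and 7 were lower, with a median of -0.30, where 19.6% and 19.2% of all genes were called. Whether the list differs from other genes was not tested. Galanin, GAL, was among the most abundant, with 59.9, 53.7 and 58.2 CPM in controls, 40.5, 39.5 and 36.6 with the PHF12 siRNA and 25.7, 24.8 and 23.7 with the SUDS3 siRNA. Its groups did not overlap, and both knockdowns lay below control. CALCB, the precursor of the beta form of calcitonin gene-related peptide, held 31.4, 35.6 and 29.5 CPM in controls, 32.3, 33.7 and 34.1 with the PHF12 siRNA and 14.6, 12.6 and 14.1 with the SUDS3 siRNA. For CALCB the SUDS3 knockdown libraries lay below all others, and control and PHF12 knockdown overlapped. The log2 fold change with the SUDS3 siRNA was -1.21 for GAL (SE 0.06), -1.23 for CALCB (SE 0.08) and -1.30 for TAC1 (SE 0.26), the precursor of substance P. The 3′ UTR of CALCB holds TACATT 2 times, and those of GAL and TAC1 hold it 0 times. Among other pathway genes called lower with the SUDS3 siRNA, PCSK5, SYTL5, NPPC and PROK2 hold it 1 time each. PCSK6 and NMU, also lower, hold it 0 times. Counts for QPCT, PRSS12, ICA1L and SORCS1 are not given here.

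In the PHF12 knockdown 1 of the 26 cargo genes rose and 4 fell, with a median of -0.07. APLN, the precursor of apelin, fell from 1.56 to 0.587 CPM (-1.41, SE 0.39, edgeR adjusted p = 0.00454), a call that ended without control replicate 1 (-0.98, adjusted p = 0.0953). NPPC, the precursor of C-type natriuretic peptide, fell by 0.70 (adjusted p = 0.00554). PROK2 fell by 0.82 (adjusted p = 0.0264), which was lost on leaving out control replicate 2 (-0.70, adjusted p = 0.126) or replicate 2 (-0.78, adjusted p = 0.0796) or 3 (-0.69, adjusted p = 0.111) of the PHF12 knockdown. The other 2 were named after their values were seen. GAL fell by 0.56 (SE 0.06), and NTS, the neurotensin gene, rose by 1.56 from 0.285 CPM (SE 0.60, adjusted p = 0.0439). The NTS call was lost without a filter on low counts, with a replicate block, and on leaving out any 1 library of control or PHF12 knockdown (adjusted p of 0.0598 to 0.152). Among the 7 pathway genes outside the set named here as falling with the PHF12 siRNA, the 3′ UTRs of PCSK6, PAM and APLN hold AATCAC 2 times each, that of ARFIP1 3 times, that of PROK2 1 time, and those of GAL and NPPC 0 times.

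**Figure D4:**
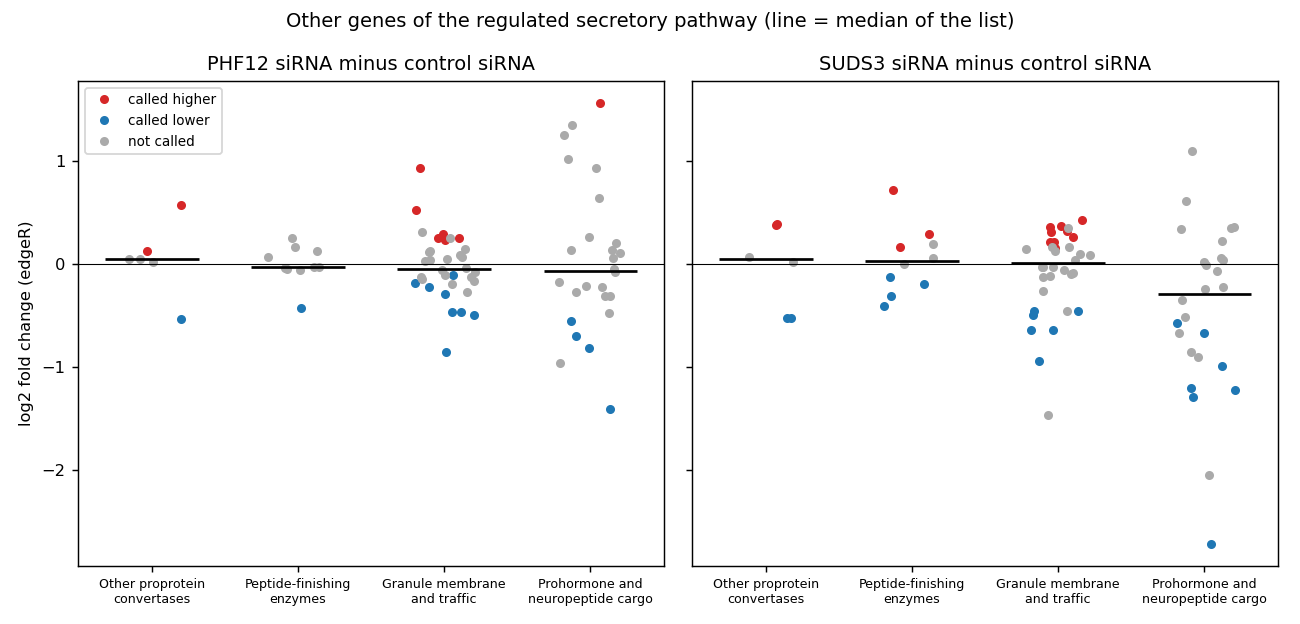
Log2 fold changes from control siRNA (edgeR) of the other secretory pathway genes, 1 point per gene, with the PHF12 siRNA on the left and the SUDS3 siRNA on the right; lines are medians of each list and colours give the call. Cargo genes have 7 calls below 0 and none above it with the SUDS3 siRNA, while the other lists have calls on both sides in that panel.

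For each member called in a knockdown, the 3 protein-coding genes of most similar pattern were sought by Pearson correlation of log2 CPM over the 9 libraries, among 11727 genes with an average log2 CPM of at least 1. For CHGA these were GTF2E2 (r = 0.993), STX10 (0.990) and IGF2BP2 (0.988), for CHGB HINT3 (0.975), CHST11 (0.975) and OSR2 (0.971), and for SCG3 MAP3K7 (0.985), C3orf14 (0.984) and ZNF304 (0.983). For PCSK1N they were HOOK2 (0.984), CYP39A1 (0.961) and NCS1 (0.957), and for CPE CTNNBIP1 (0.983), PTER (0.982) and TMSB15A (0.981). The libraries fall into 3 siRNA groups, so the 9 values behind each r are not 9 independent ones.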

How the data were processed

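Poly-A RNA libraries of HEK293T cells were sequenced after a TruSeq stranded preparation, per the labels' protocols. The submitters' processing notes name Trimmomatic 0.36, HISAT2 2.1.0, HTSeq and GRCh38. The sources used here do not give the strand setting or the lengths behind TPM. The authors deposited counts for 58735 genes and TPM for 58734, 1 column per library. GENCODE 29 gave symbols and coordinates for all 58735 identifiers. Groups come from the labels. No 2 libraries of a group agreed within counting noise (chi-square over its degrees of freedom 1.35 to 2.10, on counts divided by 4).

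The deposited counts went into edgeR 4.0.16 (R 4.3.3) with filterByExpr (minimum count 10), TMM, a robust quasi-likelihood model with 3 group means, and Benjamini-Hochberg adjustment over 18088 genes, with a threshold of 0.05. CPM are TMM-scaled. Fold changes are log2, with SE from the F statistic. The fit was tested on simulated counts. Alternatives were DESeq2 1.42.0, upper-quartile scaling, no filter, counts divided by 4, 2-group fits, a replicate term, limma 3.58.1 on log2(TPM + 1) and log2(TPM + 0.1), and leaving out each library.

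The members, lists and rules were chosen with earlier results of these data known. Named genes are the 10 members, both targets, the 3 called genes of largest change per list and knockdown whose average log2 CPM reaches 0, and the 3 genes of most similar pattern per called member. Some items withheld for evaluation are not reported here.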

Additional observations from a re-analysis of the deposited data

How the results depend on the processing

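The number of members that fell with the PHF12 siRNA, 3, was 1 in limma on log2(TPM + 1) and 2 on log2(TPM + 0.1). It was 2 in the fit of the 2 groups alone and 2 or 3 in the 9 fits without 1 library. The number that rose, 0, was 1 (CPE) with upper-quartile scaling and 0 in all 9 fits without 1 library. The numbers called with the SUDS3 siRNA stayed within 1.5 times the values reported under every alternative, with 3 or 4 called higher and 1 lower without 1 library. Of 402 fold changes of members under alternatives, 370 kept their direction and their side of the threshold, 18 lost a call, 2 gained one and 12 changed sign. Every change of sign was in SCG5, SCG2 or VGF, where no comparison with control passed. SCG5 with the PHF12 siRNA was 0.0174 with a replicate block, 0.0093 and 0.0458 in limma on log2(TPM + 1) and log2(TPM + 0.1), and -0.50 to 0.60 without 1 library (0.60 without control replicate 2, 0.18 and 0.10 without PHF12 knockdown replicates 2 and 3). SCG2 there was -0.23 without PHF12 knockdown replicate 3, in a range of -0.23 to 0.64. With the SUDS3 siRNA, SCG5 was -0.11 and -0.24 without control replicates 1 and 3 (range -0.24 to 0.70), and VGF -0.0045 without control replicate 2 (range -0.0045 to 0.67). SCG5 between the knockdowns was -0.13 and -0.05 without PHF12 knockdown replicates 2 and 3 (range -0.13 to 0.56). The cause of these changes was not tested.

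Replicate numbers are shared by the groups, but same-numbered libraries deviated together with correlations of -0.17 to 0.19, so they share a number and were not treated as pairs. A replicate block left the numbers of members called with the PHF12 siRNA at 0 higher and 3 lower, and with the SUDS3 siRNA at 4 and 1. With counts divided by 4, SCG2 and SCG5 no longer passed the filter and the 6 members left gave the same numbers of calls. Few fragments per library limit the precision for every member except CPE and PCSK1N.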
